A study of Mus musculus with 6 samples.

Results

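The 43 genes described here are those whose mean in LoxP livers exceeded the mean in SIRT2-KOhep livers, out of 205 genes whose liver values were deposited. They were chosen by 1 criterion, a mean FPKM (fragments per kilobase of transcript and per library size, a level scaled by transcript length) over 3 SIRT2-KOhep mice below the mean over 3 LoxP mice. The deleted gene Sirt2 and 7 other lower genes (Hamp, Hamp2, Mup7, Mup21, Hsd3b5, Selenbp2 and Socs2) were set apart, and the remaining 154 genes had a higher mean. The values that chose the 43 genes are therefore the same values given below, so every difference is a description of these 6 livers without a test, and support for no statement is drawn from it. Of the 43 genes, 42 carried a symbol and 41 were annotated as protein coding.

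All 6 mice were on a C57BL/6 background and were 18 months of age. SIRT2 belongs to the sirtuins, enzymes that take acetyl groups off proteins. LoxP mice were SIRT2 flox/flox Alb-Cre- and were labelled as wild type, although they carried the floxed alleles too. SIRT2-KOhep mice were SIRT2 flox/flox Alb-Cre+ and were labelled as knockout, with Cre under the albumin promoter, which is active in hepatocytes, so that the other cells of the liver keep the gene. No group carried Cre without floxed alleles, and the sex of the sequenced mice was not stated. RNA came from whole liver tissue, with 1 library for each mouse. In such bulk tissue, fewer cells of a type and less RNA per cell cannot be told apart.

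Sirt2 followed the labels, at 26.54, 28.57 and 25.78 FPKM in LoxP mice 1 to 3 and at 7.21, 8.45 and 8.58 FPKM in SIRT2-KOhep mice 1 to 3. None of 7 hepatocyte markers was among the 205 genes, so the hepatocyte content was not checked here. SIRT2-KOhep mouse 2 stood apart from the other 5 livers in several markers of other cell types. The 6 listed of 7 neutrophil markers summed to between 27.3 and 99.98 FPKM in LoxP mice and to 143.5, 1698 and 66.22 FPKM in SIRT2-KOhep mice 1 to 3. The 5 listed of 6 erythroid markers summed to between 1085 and 1819 FPKM in LoxP mice and to 2680, 6756 and 1601 FPKM in SIRT2-KOhep mice. Lcn2, which hepatocytes also make in the acute phase, accounted for most of the neutrophil sum in SIRT2-KOhep mouse 2 (1648.7 FPKM). The other 5 neutrophil markers summed to between 6.69 and 15.02 FPKM in LoxP mice and to 18.13, 48.91 and 12.43 FPKM in SIRT2-KOhep mice. SIRT2-KOhep mouse 2 was also the highest liver for Krt19 of cholangiocytes (6.12 FPKM, against 0.3 to 0.93 FPKM in the other livers), for the 2 listed of 8 pancreatic acinar markers (a sum of 6.79 FPKM, against 0 to 0.13 FPKM) and for Jchain of plasma cells (13.9 FPKM, against 3.08 to 6.95 FPKM). The acute-phase gene Saa1, picked after its values were seen, was at 6107.5 FPKM in that mouse and at 113.2 to 483.6 FPKM in the others. The 2 listed histone genes went another way, with sums of 7.38, 0.1 and 6.58 FPKM in SIRT2-KOhep mice 1 to 3. In LoxP mice these histone sums were 0.02 to 0.08 FPKM. None of the 43 genes was in a marker list of another cell type, and the part of these cells, or of an acute-phase state of mouse 2, in their lower values was not tested.

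Several of these genes belong to well known liver programs. Major urinary proteins are small lipocalins, proteins with a barrel-shaped pocket for hydrophobic ligands, which hepatocytes secrete and the kidney passes into urine, where they carry pheromones. Their transcription is high in adult male mice and depends on pulses of growth hormone acting through the transcription factor STAT5. The liver also turns cholesterol into bile acids, and it sets its response to hormones and cytokines through inhibitors that are themselves induced by the signals they dampen.

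Every SIRT2-KOhep mouse was below every LoxP mouse in 19 of the 43 genes, while 22 of all 205 genes (10.7%) met the same condition. With the looser condition that every SIRT2-KOhep mouse was below the LoxP mean, the counts were 41 of the 43 genes and 49 of all 205 genes (23.9%). Both shares follow from how the genes were chosen, and nothing is read from them. The 2 genes outside the looser condition were Obp2a and the unnamed Gene ID 105246872. The mean in SIRT2-KOhep livers was a median 36.4% of the LoxP mean. It lay between 10.9% and 51.7% in 40 of the genes, and the other 3 were listed at 0 in all SIRT2-KOhep mice. The median log2 ratio of the means, with 0.1 FPKM added to each, was -1.20 for the 43 genes and 1.08 for all 205. The members nearest to equal means were Slc13a2 (51.7%) and Lama3 (49.4%), and the nearest genes on the other side were Prom1 (177%) and Nos1ap (182%), so that no listed gene lay close to equal means.

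**Figure D1:**
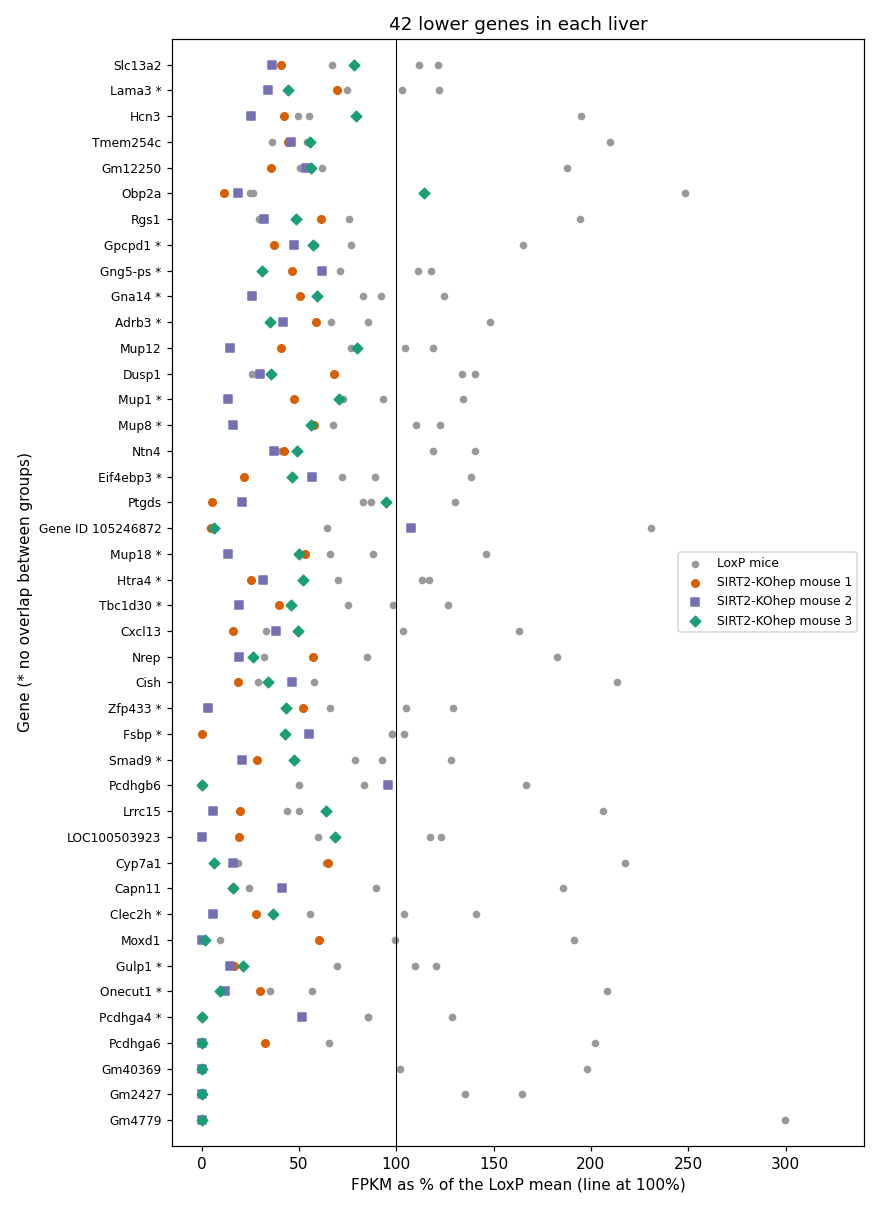
FPKM of 42 of the 43 genes in each liver, as a percentage of that gene's LoxP mean on the horizontal axis, with LoxP mice in grey and the 3 SIRT2-KOhep mice in colour; the vertical line marks 100%, and an asterisk marks the 18 plotted genes whose groups did not overlap. The coloured points lie left of the line except in Obp2a (mouse 3) and Gene ID 105246872 (mouse 2), and the grey points of many genes are spread widely.

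The genes covered a wide range of abundance. The mean in LoxP livers was under 1 FPKM in 12 genes, from 1 to 10 FPKM in 22, from 10 to 100 FPKM in 6 and at least 100 FPKM in 3, with a median of 2.66 FPKM. Mup12, Mup1 and Mup18 were the 3 above 100 FPKM, and with Mup8 they made up 94.6% of the LoxP level summed over the 43 genes. The next most abundant genes in LoxP livers were Gpcpd1, Mup8, Eif4ebp3, Dusp1, Cyp7a1 and Gene ID 105246872. Of the 19 genes without overlap, 15 had a LoxP mean of at least 1 FPKM.

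**Figure D2:**
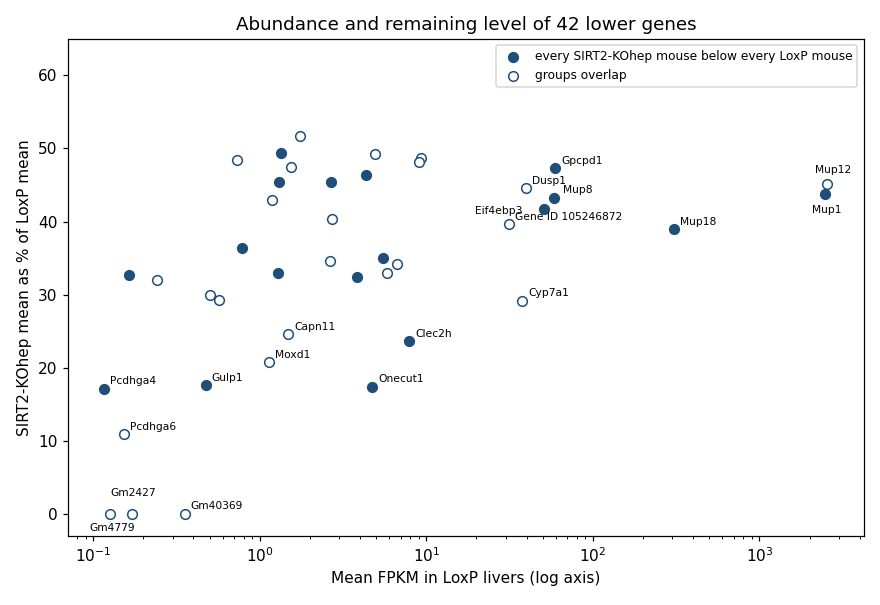
Mean FPKM in LoxP livers on a log axis against the mean in SIRT2-KOhep livers as a percentage of the LoxP mean, 1 point for each of 42 of the 43 genes; filled points are the 18 plotted genes whose groups did not overlap. The Mup genes stand at the right with 38.9% to 45.2% remaining, and the genes with the lowest percentages had LoxP means of at most 10 FPKM.

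The most abundant of these genes, Mup12, Mup1, Mup18 and Mup8, lie within 1 cluster on chromosome 4 (GRCm38), each with 7 exons on the minus strand. Mup8 spans chr4:60218620-60222565, Mup1 chr4:60498012-60501960, Mup12 chr4:60737381-60741416 and Mup18 chr4:61670177-61674132. Their coding sequences are nearly the same, which bears on how far their levels can be told apart, so a stretch of 60 bases of coding sequence in exon 1 is shown for each, 5′ to 3′ on the coding strand (coding bases 8 to 67, GENCODE M21). Capitals mark the 2 positions at which the 4 genes differ in it.
Mup12 (chr4:60741149-60741208): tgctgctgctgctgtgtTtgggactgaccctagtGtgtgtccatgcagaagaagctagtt
Mup1 (chr4:60501783-60501842): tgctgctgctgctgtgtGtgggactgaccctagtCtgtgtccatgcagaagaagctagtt
Mup18 (chr4:61673956-61674015): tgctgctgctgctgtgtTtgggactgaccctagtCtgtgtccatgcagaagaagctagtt
Mup8 (chr4:60222403-60222462): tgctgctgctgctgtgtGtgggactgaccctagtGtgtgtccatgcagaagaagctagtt
Over the whole coding sequence of 540 bases (543 in Mup18), Mup12 and Mup1 differed at 2 bases. The most different pair, Mup18 and Mup8, differed at 5, with the extra codon of Mup18 left out of the comparison. Each of the 4 transcripts matched those of 15 other genes at 97% identity or more over at least 200 bases. How fragments that fit several genes were assigned is not given in the sources used here, so the level of a single Mup gene is uncertain. The sum over the 4 is uncertain too, since the matching genes include Mup genes outside the 4, among them the abundant Mup7.

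Mup12 was at 1959.7, 2676.4 and 3036.3 FPKM in LoxP mice 1 to 3 and at 1045.2, 375.9 and 2044.7 FPKM in SIRT2-KOhep mice 1 to 3. SIRT2-KOhep mouse 3 was above LoxP mouse 1, so the groups overlapped. Mup1 was at 1787.2, 2300.8 and 3302.5 FPKM in LoxP mice and at 1164.4, 329.7 and 1739.1 FPKM in SIRT2-KOhep mice. Its groups did not overlap, but the highest SIRT2-KOhep mouse was close to the lowest LoxP mouse. The mean of Mup1 was 2464 ± 771 FPKM (SD, n = 3) in LoxP livers and 1078 ± 709 FPKM (SD, n = 3) in SIRT2-KOhep livers, or 43.8% of it. For Mup12 the percentage was 45.2%, and 27.8% without SIRT2-KOhep mouse 3.

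Mup18 was at 202.8, 270.9 and 448.8 FPKM in LoxP mice and at 163.9, 42.12 and 153.2 FPKM in SIRT2-KOhep mice, with 38.9% of the LoxP mean remaining. Mup8 was at 39.22, 64.1 and 71.12 FPKM in LoxP mice and at 33.51, 9.32 and 32.6 FPKM in SIRT2-KOhep mice, with 43.2% remaining. In both genes the groups did not overlap, and SIRT2-KOhep mouse 2 was the lowest liver by far. Summed over the 4 genes, the level was 3989, 5312 and 6859 FPKM in LoxP mice and 2407, 757.1 and 3970 FPKM in SIRT2-KOhep mice. The sum in SIRT2-KOhep mouse 3 was thus just below that of LoxP mouse 1. The make-up of the sum changed little from liver to liver, with Mup12 at 43.4% to 51.5%, Mup1 at 43.3% to 48.4%, Mup18 at 3.86% to 6.81% and Mup8 at 0.821% to 1.39%. Because the sequences are nearly the same and the assignment of shared fragments is unknown, how far this make-up reflects the single genes is uncertain. SIRT2-KOhep mouse 2, the liver with the lowest Mup levels, was also the one with the highest markers of other cell types named above. Without it, the remaining mean of the 4 Mup genes was 51.6% to 60.4% of the LoxP mean. All 6 listed Mup genes, with Mup7 and Mup21 that were set apart, had a lower mean in SIRT2-KOhep livers.

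The 43 genes held 2 other lipocalins on chromosome 2, Ptgds and Obp2a. Ptgds, the lipocalin-type synthase of prostaglandin D, was at 2.38, 2.26 and 3.55 FPKM in LoxP mice and at 0.14, 0.57 and 2.59 FPKM in SIRT2-KOhep mice. SIRT2-KOhep mice 1 and 2 were well below all LoxP mice, whereas mouse 3 was above LoxP mice 1 and 2. Obp2a, which encodes an odorant-binding protein, was at 2.26, 2.38 and 22.35 FPKM in LoxP mice and at 1.04, 1.67 and 10.3 FPKM in SIRT2-KOhep mice. Its high values came from 1 mouse in each group, and SIRT2-KOhep mouse 3 exceeded the LoxP mean. Over the 6 lipocalins, SIRT2-KOhep mouse 1 stood at a median 44.1% of the LoxP mean, mouse 2 at 15.4% and mouse 3 at 75.3%. These 6 were taken from the lower genes only. The listed lipocalin Lcn2 had a higher mean in SIRT2-KOhep livers (609.3 FPKM, against 50.42 FPKM in LoxP livers), with its highest value in mouse 2. The means of Orm1, Orm2 and Orm3, of the same family, were higher too, whereas those of Mup7 and Mup21 were lower. The listed lipocalins thus did not all go 1 way.

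**Figure D3:**
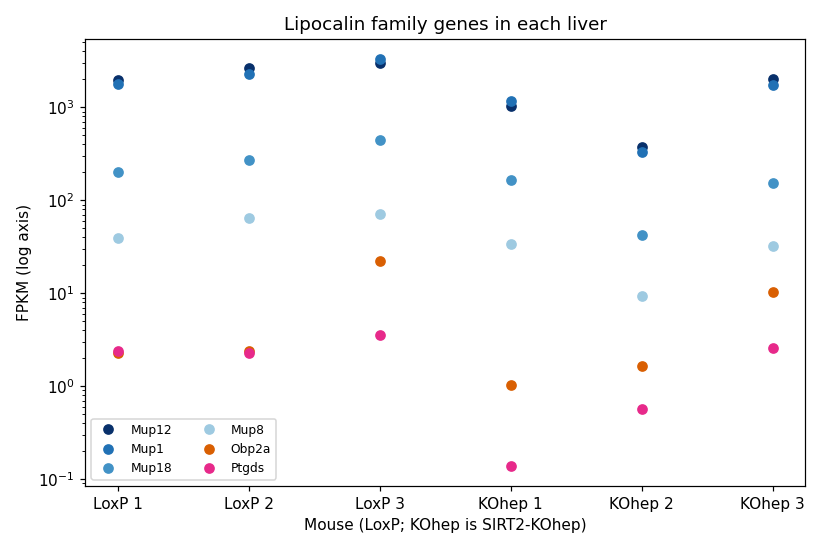
FPKM of the 6 lipocalin genes taken from the lower genes, on a log axis, 1 column of points for each liver. The 4 Mup genes, whose levels are hard to tell apart, shift together from liver to liver and are lowest in SIRT2-KOhep mouse 2. Obp2a is highest in mouse 3 of each group.

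Genes of bile acid and lipid metabolism and transport were Cyp7a1, Gpcpd1 and Slc13a2. Moxd1, an enzyme of another kind, was counted in the same group. Cyp7a1, the rate-limiting enzyme of bile acid synthesis from cholesterol, was at 81.61, 7.06 and 24.01 FPKM in LoxP mice and at 24.45, 6 and 2.41 FPKM in SIRT2-KOhep mice. The LoxP mice themselves spanned a wide range, and the groups overlapped, with LoxP mouse 1 alone far above the other 5 livers. Cyp7a1 was at 29.2% of the LoxP mean with all mice at 70.5% without LoxP mouse 1 and at 11.2% without SIRT2-KOhep mouse 1. Of the 8 listed cytochrome P450 genes it alone was lower by its mean, it was the only 1 listed of 7 genes in a bile acid list, and no gene of the lists for fatty acid synthesis (13 genes) or sterol synthesis (14 genes) was among the 205.

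Gpcpd1 encodes a glycerophosphodiesterase that releases choline from glycerophosphocholine. It was at 98.22, 45.66 and 34.84 FPKM in LoxP mice and at 22.17, 28.31 and 34.06 FPKM in SIRT2-KOhep mice. Its groups did not overlap, but by the narrowest margin of all 19 such genes, since the lowest LoxP mouse was 1.02 times the highest SIRT2-KOhep mouse. Without LoxP mouse 1, the remaining level of Gpcpd1 was 70.0% instead of 47.3%. Slc13a2, a sodium-coupled carrier of citrate and other dicarboxylates, was at 1.17, 1.94 and 2.11 FPKM in LoxP mice and at 0.71, 0.63 and 1.36 FPKM in SIRT2-KOhep mice. Only SIRT2-KOhep mouse 3 overlapped with the LoxP mice, and Slc13a2 was the only lower gene of 9 listed transporter genes. Moxd1, a monooxygenase related to dopamine beta-hydroxylase, was at 0.11, 1.13 and 2.18 FPKM in LoxP mice and at 0.69, 0 and 0.02 FPKM in SIRT2-KOhep mice. LoxP mouse 1 lay within the range of the knockout livers in Moxd1, and 20.8% of the LoxP mean remained. The percentage was 38.2% without LoxP mouse 3 and 0.877% without SIRT2-KOhep mouse 1.

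Onecut1, Smad9, Zfp433 and Fsbp encode transcription factors or proteins of that kind, and in all 4 the groups did not overlap. Of all 205 genes, 22 (10.7%) met the same condition. The function groups were formed with results known, so nothing is read from this count. Onecut1, the hepatocyte nuclear factor HNF6, which acts in liver and bile duct development and in adult hepatocytes, was at 9.83, 2.67 and 1.66 FPKM in LoxP mice and at 1.42, 0.58 and 0.46 FPKM in SIRT2-KOhep mice. Onecut1 had the lowest remaining percentage (17.4%) among genes with a LoxP mean of at least 1 FPKM, and LoxP mouse 1 again stood far above the others. It was at 37.9% without that mouse and at 11.02% without SIRT2-KOhep mouse 1. Its transcript shares 2179 bases with the annotated gene Gm20649, so fragments from there could belong to either.

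Smad9, a transcription factor that receptors of bone morphogenetic proteins activate, was at 4.9, 3.02 and 3.54 FPKM in LoxP mice and at 1.09, 0.8 and 1.82 FPKM in SIRT2-KOhep mice. The lowest LoxP mouse was 1.66 times the highest SIRT2-KOhep mouse, one of the wider separations, and the LoxP mice were closer to each other than in most of the genes. The mean was 3.82 ± 0.971 FPKM (SD, n = 3) in LoxP livers and 1.24 ± 0.526 FPKM (SD, n = 3) in SIRT2-KOhep livers, or 32.4%, and between 24.7% and 38.1% when any mouse was left out.

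Zfp433, a zinc finger protein, was at 1.35, 1.66 and 0.85 FPKM in LoxP mice and at 0.67, 0.04 and 0.56 FPKM in SIRT2-KOhep mice. SIRT2-KOhep mouse 2 was near 0, and the transcript is 99.9% identical over 2379 bases to that of Gm32687, so its level is uncertain. Fsbp, named for binding a silencer of a fibrinogen gene, was weakly expressed, at 0.17, 0.16 and 0.16 FPKM in LoxP mice and at 0, 0.09 and 0.07 FPKM in SIRT2-KOhep mice. Fsbp had the smallest spread among LoxP mice of all 43 genes, a coefficient of variation (SD over mean) of 3.54%, and shares 2070 bases of its transcript with Rad54b. Its LoxP values differ only in the last of the 2 decimals given, so this spread says little about agreement between mice.

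Cish, Dusp1 and Eif4ebp3 encode inhibitors of cytokine, kinase and translation signalling. Cish belongs to the suppressor of cytokine signalling family and is induced through STAT5. The start of the gene is shown because it held a pair of TTCNNNGAA motifs, the form that STAT5 recognises, in capitals.
Cish (chr9:107296655-107296684, plus strand, RefSeq GRCm38.p6): agttTTCCTGGAAagTTCTTGGAAatctgt
The matches began at bases 1 and 12 counted from the start annotated in RefSeq. The Cish transcript taken from GENCODE M21 starts further on, at base 107296907, so both matches lie before that start. In promoter windows of 250 bases before to 50 after the start, TTCNNNGAA was found in 8.3% of 32851 windows. The 22 lower genes with a window had 24 windows, and 4 of these held it (Cish, Moxd1, Gm12250 and Gm4779). Searched on both strands, CACGTG was found in 7.15% of all windows and in 3 of the 24 (Dusp1, Gm2427 and Onecut1). TATAAA was found in 13.6% and 3 (Cxcl13, Obp2a and Slc13a2), and TTATGTAA in 0.938% and 1 (Ptgds). A match is a description of letters in the window and was not set against binding.

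Cish itself was at 12.39, 1.68 and 3.36 FPKM in LoxP mice and at 1.08, 2.69 and 1.97 FPKM in SIRT2-KOhep mice. Its low mean in SIRT2-KOhep livers (32.9%) rested on LoxP mouse 1, without which 75.9% remained. Dusp1, a phosphatase that inactivates mitogen-activated protein kinases, was at 55.7, 53.06 and 10.2 FPKM in LoxP mice and at 27.01, 11.87 and 14.09 FPKM in SIRT2-KOhep mice. LoxP mouse 3 was lower than all 3 SIRT2-KOhep mice in Dusp1, and the other 2 LoxP mice were higher. It was the only 1 listed of 11 immediate early genes. Eif4ebp3, which binds the cap-binding factor eIF4E and restrains translation, was at 70.42, 36.62 and 45.34 FPKM in LoxP mice and at 11.16, 28.8 and 23.62 FPKM in SIRT2-KOhep mice. Its groups did not overlap, 41.7% of the LoxP mean remained, and SIRT2-KOhep mouse 2, the lowest for the Mup genes, was the highest knockout liver here. Its transcript shares 504 bases with the overlapping entry AC115631.1.

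Genes of G protein and membrane signalling were Gna14, Rgs1, Gng5-ps, Adrb3, Hcn3 and Tbc1d30, with LoxP means of 1.30 to 5.52 FPKM. Tbc1d30, which carries a GTPase-activating domain for Rab proteins, was at 6.99, 4.14 and 5.43 FPKM in LoxP mice and at 2.2, 1.06 and 2.53 FPKM in SIRT2-KOhep mice. The lowest LoxP mouse was 1.64 times the highest SIRT2-KOhep mouse, and the remaining level of 35.0% moved only between 29.5% and 42.8% when any mouse was left out. Adrb3, an adrenergic receptor best known from fat cells, was at 1.77, 3.94 and 2.27 FPKM in LoxP mice and at 1.57, 1.11 and 0.94 FPKM in SIRT2-KOhep mice. Gna14, a G protein alpha subunit of the Gq class, was at 1.08, 1.62 and 1.2 FPKM in LoxP mice and at 0.66, 0.34 and 0.77 FPKM in SIRT2-KOhep mice. Both were separated between the groups at a low level, with 45.4% of the LoxP mean remaining.

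Gng5-ps, a transcribed pseudogene of a G protein gamma subunit, was at 3.06, 4.8 and 5.09 FPKM in LoxP mice and at 2, 2.68 and 1.33 FPKM in SIRT2-KOhep mice. The groups did not overlap, but fragments of the parent gene could have been counted here, which was not examined. In Rgs1, which speeds GTP hydrolysis by G proteins, and Hcn3, a cation channel opened by hyperpolarization, the groups overlapped. Rgs1 was at 3.01, 1.17 and 0.46 FPKM in LoxP mice and at 0.95, 0.5 and 0.75 FPKM in SIRT2-KOhep mice. Hcn3 was at 9.56, 2.7 and 2.44 FPKM in LoxP mice and at 2.08, 1.25 and 3.9 FPKM in SIRT2-KOhep mice. Both rested on LoxP mouse 1, without which 90.0% of Rgs1 and 93.8% of Hcn3 remained.

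Matrix, adhesion and engulfment genes were 8 in number, and the groups did not overlap in Lama3, Gulp1 and Pcdhga4. Gulp1, an adaptor in the engulfment of dying cells, was at 0.33, 0.52 and 0.57 FPKM in LoxP mice and at 0.08, 0.07 and 0.1 FPKM in SIRT2-KOhep mice. It had the widest separation of the 19 genes, the lowest LoxP mouse being 3.30 times the highest SIRT2-KOhep mouse, although all its values were under 1 FPKM. The remaining level was 17.6%, and between 15.3% and 19.6% when any mouse was left out. Lama3, a laminin alpha chain of basement membranes, was at 1.65, 1.01 and 1.39 FPKM in LoxP mice and at 0.94, 0.46 and 0.6 FPKM in SIRT2-KOhep mice. SIRT2-KOhep mouse 1 was just below LoxP mouse 2 in Lama3, and 49.4% of the LoxP mean remained.

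Pcdhga4, Pcdhga6 and Pcdhgb6 are gamma protocadherins, adhesion proteins whose genes share their last exons, and in LoxP livers their means were between 0.117 and 0.24 FPKM. Pcdhga4 was at 0.1, 0.1 and 0.15 FPKM in LoxP mice and at 0, 0.06 and 0 FPKM in SIRT2-KOhep mice. The 3 transcripts shared 44.9% to 45.6% of their length with a close relative, so fragments of the shared exons cannot be told apart. Their listed relatives Pcdhgb7 and Pcdhgc5 went the other way, also at a low level. The mean of Pcdhgb7 was 0.067 FPKM in LoxP livers and 0.203 FPKM in SIRT2-KOhep livers. For Pcdhgc5 these means were 0.013 and 0.097 FPKM. The remaining genes of this group overlapped between the groups, and 42.9% of the LoxP mean remained for Ntn4, a netrin of basement membranes. Nrep, named for a role in neuronal regeneration, was at 12.2, 5.69 and 2.15 FPKM in LoxP mice and at 3.82, 1.27 and 1.75 FPKM in SIRT2-KOhep mice. Its remaining 34.1% rested on LoxP mouse 1, without which it was 58.2%, and it was 22.6% without SIRT2-KOhep mouse 1. Lrrc15, a membrane protein with leucine-rich repeats, was at 0.25, 0.22 and 1.03 FPKM in LoxP mice and at 0.1, 0.03 and 0.32 FPKM in SIRT2-KOhep mice. Ntn4 was at 1.4, 0.48 and 1.66 FPKM in LoxP mice and at 0.5, 0.44 and 0.58 FPKM in SIRT2-KOhep mice, so that LoxP mouse 2 was as low as the knockout livers.

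Of 2 protease genes, Htra4, a secreted serine protease, was separated at a low level, with 0.89, 0.92 and 0.55 FPKM in LoxP mice and 0.2, 0.25 and 0.41 FPKM in SIRT2-KOhep mice. Capn11, a calcium-dependent cysteine protease, was at 2.75, 1.33 and 0.36 FPKM in LoxP mice and at 0.24, 0.61 and 0.24 FPKM in SIRT2-KOhep mice. In Capn11 24.6% of the LoxP mean remained, but LoxP mouse 3 lay within the range of the knockout livers. The percentage was 43.0% without LoxP mouse 1 and 16.2% without SIRT2-KOhep mouse 2.

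Immune and interferon genes were Clec2h, Cxcl13 and Gm12250. Clec2h, a C-type lectin-related protein of a family that binds receptors of natural killer cells, was at 8.19, 11.11 and 4.38 FPKM in LoxP mice and at 2.21, 0.48 and 2.9 FPKM in SIRT2-KOhep mice. The lowest LoxP mouse was 1.51 times the highest SIRT2-KOhep mouse, 23.6% of the LoxP mean remained, and the range was 17.0% to 32.4% when any mouse was left out. Cxcl13, a chemokine that attracts B cells, was at 4.32, 0.88 and 2.74 FPKM in LoxP mice and at 0.43, 1.01 and 1.31 FPKM in SIRT2-KOhep mice. Gm12250, an interferon-inducible GTPase, was at 1.37, 0.37 and 0.45 FPKM in LoxP mice and at 0.26, 0.39 and 0.41 FPKM in SIRT2-KOhep mice. Both overlapped between the groups, and Gm12250 was at 86.2% without LoxP mouse 1. A list of interferon-induced and antigen-presentation genes had only Isg20 among the 205 genes, and it went the other way. The mean of Isg20 was 2.20 FPKM in LoxP livers and 4.72 FPKM in SIRT2-KOhep livers. None of 8 T and NK cell markers or 8 macrophage and Kupffer cell markers was among the 205 genes, and the 1 listed of 9 B and plasma cell markers, Jchain, was higher in SIRT2-KOhep livers by its mean.

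Little is known of the other 6 genes, and in none of them were the groups separated. Gene ID 105246872, without a symbol in the reference used, was at 72.59, 20.29 and 1.35 FPKM in LoxP mice and at 1.52, 33.81 and 1.99 FPKM in SIRT2-KOhep mice. It was high in 2 LoxP mice and 1 SIRT2-KOhep mouse and between 1.35 and 1.99 FPKM in the others. Without LoxP mouse 1 the SIRT2-KOhep mean was 115% of the LoxP mean. Tmem254c, a transmembrane protein, was at 5.01, 3.34 and 19.35 FPKM in LoxP mice and at 4.11, 4.24 and 5.13 FPKM in SIRT2-KOhep mice. Its lower mean rested on LoxP mouse 3, without which it was 108%, and its transcript is the same as those of Tmem254a and Tmem254b over 1211 bases. Gm40369, Gm2427 and Gm4779 were listed at 0 in all SIRT2-KOhep mice and in 1, 1 and 2 LoxP mice, and their highest LoxP values were 0.7, 0.28 and 0.38 FPKM. LOC100503923 was at 0.34, 0.7 and 0.67 FPKM in LoxP mice and at 0.11, 0 and 0.39 FPKM in SIRT2-KOhep mice, so that only mouse 3 overlapped.

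**Figure D4:**
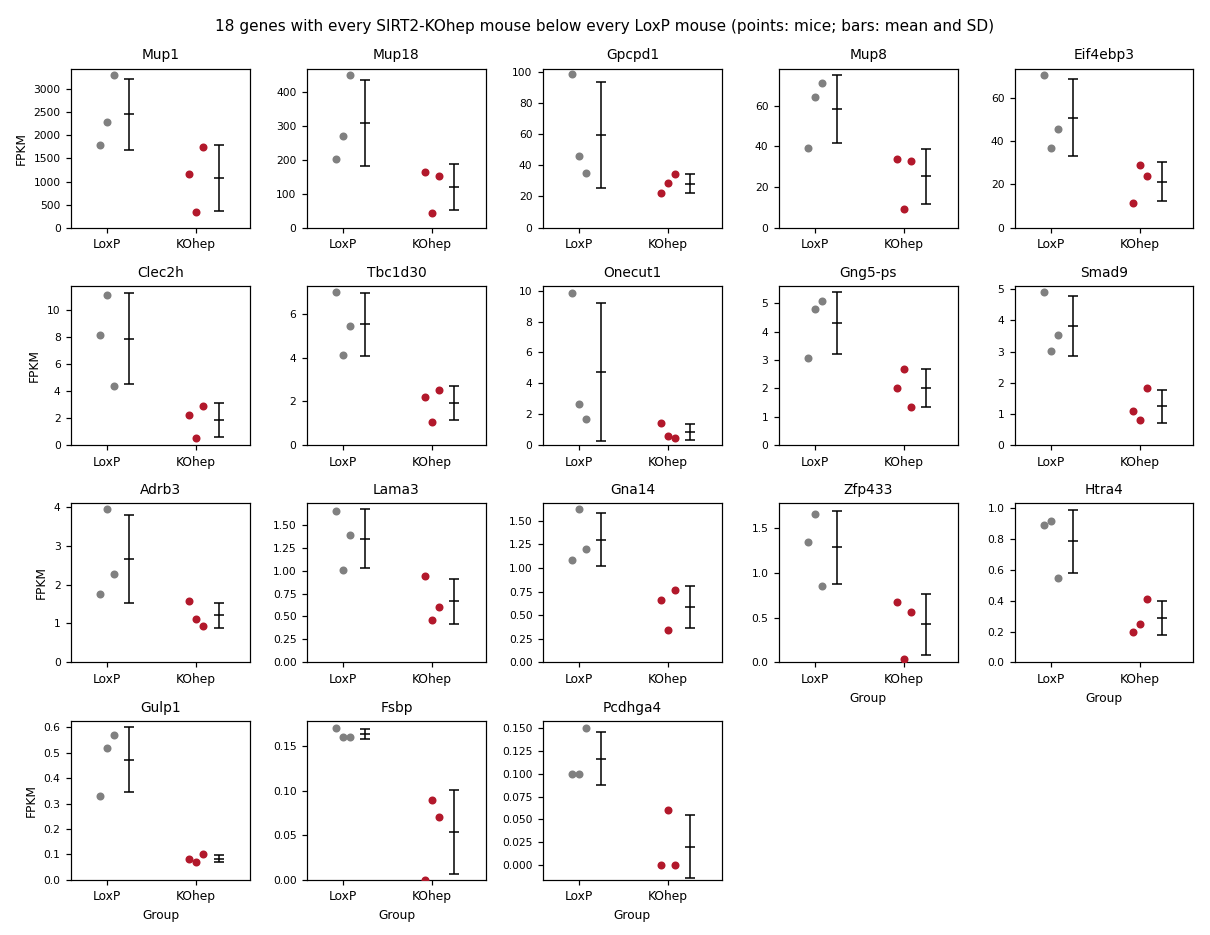
FPKM in each mouse (points), with the mean and SD of each group (bars, n = 3), for 18 of the 19 genes in which every SIRT2-KOhep mouse (KOhep) was below every LoxP mouse; each panel has its own linear axis. The gap between the groups is widest relative to level in Gulp1 and narrowest in Gpcpd1 and Mup1.

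The 3 SIRT2-KOhep mice did not contribute alike. Over the 43 genes, mouse 1 stood at a median 35.6% of the LoxP mean, mouse 2 at 25.5% and mouse 3 at 44.4%. Mouse 2 was the lowest knockout liver in 20 genes, mouse 1 in 11 and mouse 3 in 5, with 7 ties. By function, mouse 2 was the lowest in 4 of 6 lipocalins, all of them Mup genes that share sequence. It was the lowest in 5 of 8 matrix, adhesion and engulfment genes and in 4 of 6 genes of G protein and membrane signalling. In the group of bile acid and lipid metabolism and transport it was the lowest in 2 of 4 genes, Slc13a2 and the added Moxd1. It was also the lowest in 2 of the 4 transcription factors, and in 1 of 3 in both the inhibitors of signalling and the immune genes. These counts were not tested against each other. A level of at most 50% of the LoxP mean was found in mouse 1 for 31 genes, in mouse 2 for 35, in mouse 3 for 29 and in all 3 mice for 13. Of these 13, the groups did not overlap in 5, namely Clec2h, Tbc1d30, Onecut1, Smad9 and Gulp1. The genes were chosen by the same values, and the share of all listed genes at or under 50% was not computed. Nothing is therefore read from the counts at this bound.

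The LoxP mice also differed among themselves. The median coefficient of variation among the 3 LoxP mice was 47.3% over the 31 lower genes with a LoxP mean of at least 1 FPKM, and 25.7% over the 50 higher genes with a LoxP mean of at least 1 FPKM. Since a high value in a single LoxP mouse raises the mean that the criterion used, this spread belongs to the choice of genes and was not tested. LoxP mouse 1 was the highest LoxP mouse in 20 genes, mouse 3 in 15 and mouse 2 in 8. In 16 genes the highest LoxP mouse was at least 2 times the next (in Gm4779 the next was 0), and it was mouse 1 in 11 of them and mouse 3 in 3.

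When 1 mouse was left out, the remaining level passed 75% of the LoxP mean in 7 genes. These were Gene ID 105246872, Hcn3, Rgs1, Gm12250 and Cish without LoxP mouse 1, and Obp2a (187%) and Tmem254c without LoxP mouse 3. No gene passed 75% when LoxP mouse 2 or any SIRT2-KOhep mouse was left out. For the SIRT2-KOhep mice this was nearly fixed in advance, and nothing is read from it. The percentages were at most 51.7% with all mice, and leaving out 1 of 3 mice can raise a mean only to a limited degree. In 17 genes the level stayed at or under 50% whichever mouse was left out (Gm4779, at 0 in LoxP mice 2 and 3, has no value without LoxP mouse 1). Among them, Clec2h, Tbc1d30, Onecut1, Smad9 and Zfp433 had no overlap between the groups and a LoxP mean of at least 1 FPKM. The share of all listed genes that stayed at or under 50% was not computed, so nothing is read from the count of 17. Without SIRT2-KOhep mouse 2, the liver that stood apart in markers of other cell types, 58 genes met the criterion. The median percentage over the 43 was 42.0%. All 43 were among the 58, but leaving out 1 of 3 mice cannot bring a percentage of at most 51.7% to equal means.

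**Figure D5:**
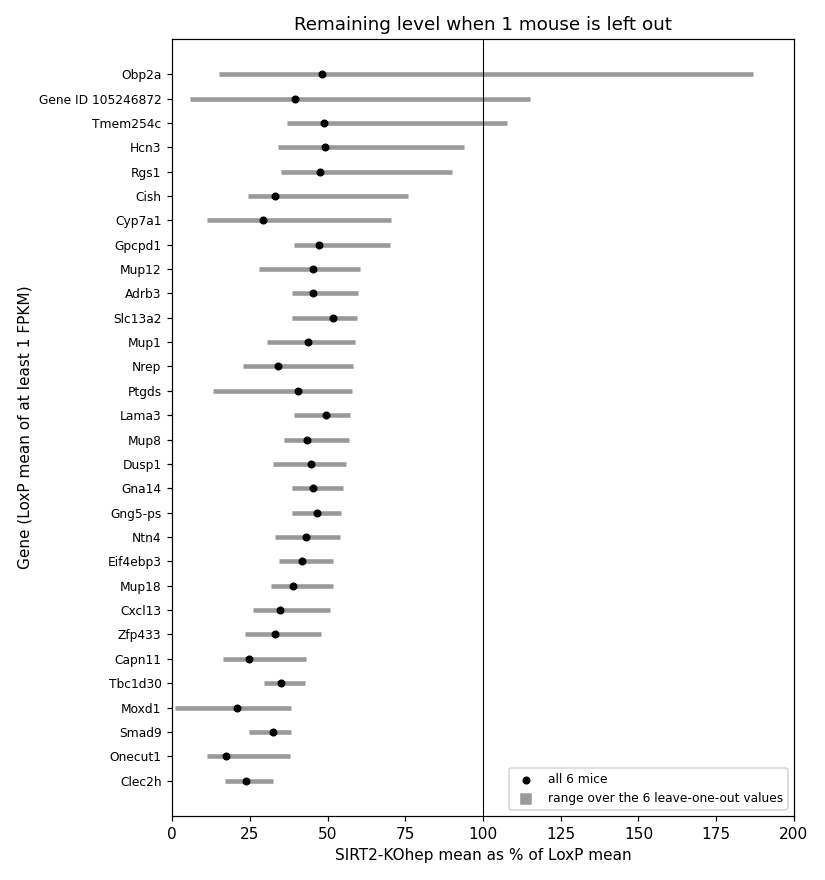
Mean in SIRT2-KOhep livers as a percentage of the LoxP mean for 30 of the 31 genes with a LoxP mean of at least 1 FPKM, with all 6 mice (black points) and as the range over the 6 values that each leave out 1 mouse (grey bars); the vertical line marks 100%. The bars of Obp2a, Gene ID 105246872 and Tmem254c cross the line, and those of Clec2h, Onecut1, Smad9 and Tbc1d30 stay under 50%.

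The 42 genes with a position in the reference lay on 16 chromosomes. Of the 37 with a transcript in GENCODE M21, 13 matched another gene at 97% identity or more over at least 200 bases, and 24 did not. Gulp1, Smad9, Clec2h, Tbc1d30, Gna14, Adrb3, Lama3, Htra4 and Gpcpd1 were among the genes without overlap between the groups that had no such copy. Of the lists for circadian output (15 genes), heat shock (7), pericentral hepatocytes (10) and periportal hepatocytes (8), none was among the 205 genes, so those programs are not described by these data.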

How the data were processed

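RNA was sequenced from the livers of 3 LoxP and 3 SIRT2-KOhep mice on the DNBSEQ platform after mRNA enrichment or removal of ribosomal RNA (which of them is not stated). For 205 genes the authors deposited FPKM, rounded to 2 decimals, in 1 column for each mouse, and all columns were used (0 were left out). The submitters' processing notes name mm10. The aligner, the counting, the strand setting and the way the 205 genes were selected are not given in the sources used here. Depth is unknown, because a step worth 1 read (tolerance 0.006 FPKM) was found in 1 of 64 low genes, so no counting interval is given, and p-values were not computed.

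Groups and replicate numbers came from the labels, and the age of 18 months from the study's text. Gene IDs were matched to RefSeq GRCm38.p6, which named 203 of 205. Means, SDs and log2((SIRT2-KOhep mean + 0.1)/(LoxP mean + 0.1)) were computed with Python 3.11.15, numpy 2.4.6 and pandas 2.3.3, and figures with matplotlib 3.10.9. The script was tested on simulated data. Transcripts were compared with BLAST 2.17.0. Values in every mouse were planned for 22 genes: those without overlap at a LoxP mean of at least 1 FPKM, the 10 with the highest LoxP mean, and the 5 with the lowest percentage at that minimum. Values of further genes were added after they were seen. The values of 1 gene are not reported here, although it stays in the counts. The genes, function groups and lists were chosen with earlier results of these data known. Alternatives were group medians, rescaled libraries, a minimum of 1 FPKM, pseudocounts of 1 and 0.01, and leaving out each mouse.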

Additional observations from a re-analysis of the deposited data

How the results depend on the processing

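No paired analysis was possible because the result comes from no test and the replicate numbers only name the mice. The criterion held for 43 genes with means and 47 with medians (42 of them shared), for 48 after each library was rescaled by its median ratio over 152 listed genes, and for 26 with a minimum mean of 1 FPKM. It held for 41 to 58 genes when 1 mouse was left out. The count without overlap was 19 with means, 19 with medians, 24 after rescaling, 13 with the minimum and 21 to 26 when 1 mouse was left out, where fewer mice are compared. The count with every SIRT2-KOhep mouse below the LoxP mean was 41, then 34, 43, 24 and 36 to 50.

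The median log2 ratio was -1.20. It was -1.22 with medians, -1.20 with the minimum, -1.70 after rescaling, -0.82 with a pseudocount of 1, -1.43 with 0.01, and -1.43 to -1.08 when 1 mouse was left out, the lowest without SIRT2-KOhep mouse 3. Rescaling moved the median of all listed genes from 1.08 to 0.39, with the largest log2 factor (1.19) in SIRT2-KOhep mouse 2, and it rests on a selected list of genes. The factor of every SIRT2-KOhep liver exceeded that of every LoxP liver, so rescaling could only lower the SIRT2-KOhep means relative to the LoxP means. All 43 genes stayed lower after it, but that was fixed in advance. The count without overlap could not fall for the same reason.

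Over 22 named genes and 11 alternatives, 236 of 238 log2 ratios were negative and 21 moved by more than 1 SD between SIRT2-KOhep mice. Many of these signs were fixed in advance, since the genes were chosen for a lower mean. Neither a pseudocount nor the minimum can change a sign, and rescaling could only lower the ratios. The tally of signs is therefore no measure of stability. When 1 mouse was left out, the ratio of Gene ID 105246872 ranged from -4.09 to 0.20 (without LoxP mouse 1) and that of Tmem254c from -1.42 to 0.10 (without LoxP mouse 3), so the direction of each rests on 1 mouse. Outside these 22 genes, that of Obp2a was 0.87 without LoxP mouse 3. With depth unknown, the counting error of low values cannot be given.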
